A study of Homo sapiens with 9 samples.

Results

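The clustered protocadherin genes lie side by side on human chromosome 5 (hg19) as an alpha cluster at 140.16 to 140.40 Mb, a beta cluster at 140.43 to 140.63 Mb and a gamma cluster at 140.71 to 140.90 Mb. They were taken as the bins of 40 kb over these 3 clusters with flanks of 1 Mb on each side, and a bin was given to a cluster when at least 50% of it lay inside. This gave 69 of the 77404 bins of the genome, of which 6 were alpha, 5 beta and 5 gamma bins, 1 lay between alpha and beta, 2 lay between beta and gamma, and 25 lay in each flank. The left flank is the side of lower coordinates. Hi-C, in which DNA fragments that lie close together in the nucleus are ligated and the joined pairs counted, was compared between 3 libraries of growing cells and 2 libraries of cells in RAS-induced senescence (RIS). All 5 came from IMR90, a line of human fetal lung fibroblasts, at passage 20-25 with a stable ER:HRAS-G12V construct, in which the oncogene is fused to the oestrogen receptor and is switched on by 4-hydroxytamoxifen (4OHT). RIS cells had 100 nM 4OHT for 6 days and growing cells had none, and by its label growing replicate 3 carried an MSCV vector besides. The labels do not say whether replicates were separate cultures, so p-values measure the spread between these libraries. No expression was measured in the libraries analysed here, so neither the cell label nor the use of any protocadherin gene was checked.

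Clustered protocadherins are cadherin-like adhesion molecules of the cell surface, best known from neurons, where each cell uses its own small set of them and cells of like sets recognise each other. In the alpha and gamma clusters each of many variable exons has its own promoter and is spliced to constant exons at the end of the cluster, while beta genes are single exons. Promoter choice is known to involve loops made by CTCF and cohesin between a promoter and enhancers further along the locus, and most of the promoters carry a conserved element with the letters CGCT. The annotation lists 15 alpha, 16 beta and 22 gamma genes, from PCDHA1 to PCDHAC2, from PCDHB1 to PCDHB15 and from PCDHGA1 to PCDHGC5. These 53 genes were among 92 protein-coding starts of the region. PCDHB1 starts in the bin between alpha and beta. PCDHGA1 and PCDHGA2 start between beta and gamma, beside SLC25A2, a mitochondrial carrier, and TAF7, a subunit of the general transcription factor TFIID. The left flank holds 23 protein-coding starts, among them NRG2 and HBEGF, both growth factors of the EGF family, PURA, a nucleic acid binding protein, CD14, a receptor for bacterial lipopolysaccharide, HARS1, the histidyl-tRNA synthetase, and ZMAT2, a zinc finger protein nearest to the alpha cluster. The right flank holds 12, among them DIAPH1, a formin, HDAC3, a histone deacetylase, PCDH1 and PCDH12, protocadherins outside the clusters, NDFIP1, an adaptor of ubiquitin ligases, and SPRY4, an inhibitor of growth factor signalling.

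The promoters show the repeated make-up of the clusters, since within a cluster many promoters carry the same 8 letters around the CGCT box near the gene start. Promoters were RefSeq sequences of GRCh38.p14, from 250 bases before to 50 bases after the start, a build whose coordinates are not those of the hg19 bins, and 13 alpha, 14 beta and 20 gamma genes had one. For each cluster the run of 8 letters containing CGCT that most promoters shared was counted on both strands. Here 3 promoters of each cluster are shown as 30 bases with that run in capitals. In the alpha cluster the run was ATGTCGCT, held by 9 of 13 promoters and by 0.245% of 27305 promoters of the genome. It was not in the windows of PCDHA9, PCDHA11, PCDHAC1 and PCDHAC2.
PCDHA1 (chr5:140786087-140786116, + strand): ttggccacatgATGTCGCTgtacaccacaa
PCDHA6 (chr5:140827898-140827927, + strand): ggagccgcatgATGTCGCTgtctaccatga
PCDHA12 (chr5:140875245-140875274, + strand): tcagtcacatgATGTCGCTctacactcaga

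In the beta cluster the run was GTGGCGCT, held by 13 of 14 promoters, all but that of PCDHB1, and by 1.18% of promoters of the genome.
PCDHB2 (chr5:141094545-141094574, + strand): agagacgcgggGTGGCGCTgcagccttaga
PCDHB16 (chr5:141182311-141182340, + strand): gagaacgcgtgGTGGCGCTgcaggttaaga
PCDHB15 (chr5:141245315-141245344, + strand): gacaacgcatgGTGGCGCTgcaggctaagg

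In the gamma cluster the run was GCCGCTGT, held by 11 of 20 promoters and by 1.6% of promoters of the genome.
PCDHGA1 (chr5:141330406-141330435, + strand): ggactgtgggcGCCGCTGTtcactaatctg
PCDHGB5 (chr5:141397866-141397895, + strand): tgactctgggcGCCGCTGTtggccaaagtg
PCDHGC4 (chr5:141484955-141484984, + strand): tgagcccgggaGCCGCTGTctgccaatcgg

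The letters CGCT alone were in 12 of 13 alpha, 14 of 14 beta and 20 of 20 gamma promoters, and in 69.4% of all promoters. The runs were picked for being common in a cluster, and a match is a description of letters, not of a bound site. The genes of a cluster resemble each other, and how many reads fitted more than 1 of them was not measured.

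The growing libraries held 154318992, 175410468 and 180775315 contacts and the RIS libraries 109967509 and 150689993, of which 92.4 to 93.0% and 90.2 to 90.4% lay within chromosomes. Coverage of the 69 bins before balancing ran from 0.126 to 1.764 of that of the median bin of the genome. The bin at chr5:140200001-140240000 in the alpha cluster was the sparsest, with 0.126 to 0.147 of the median coverage and 2 sites of HindIII, the enzyme that cut the DNA. The other 18 bins of the span of the 3 clusters had at least 0.344. Contacts are given as observed over expected, where the expected value is the mean of pairs of bins at the same distance on the chromosome, and a block is the mean over all pairs of bins of a pair of regions, as log2. Every block was fitted together with all windows of the same shape on 23 chromosomes, and its change was called at an adjusted p under 5%. With 5 libraries there are 10 ways to assign the labels, so an exact permutation p cannot go below 0.1.

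In growing cells contacts within the whole span of the 3 clusters were about as frequent as distance predicts. The span had poor contact to both sides, most of all to the right. Alpha met beta more often than distance predicts, and gamma met itself more often. Gamma met the other clusters less often. Its mean log2 level was -0.65 with alpha, above that of 29.0% of windows, and -0.87 with beta, above that of 12.6%. The clusters met the right flank less often than nearly all windows of that shape did. In growing cells the mean log2 level of the whole span with the right flank was -2.25, above that of 0.165% of windows, and that of the span with the left flank was -0.92, above that of 11.3%. Within the span the level was -0.09, above that of 44.2% of windows.

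**Figure D1:**
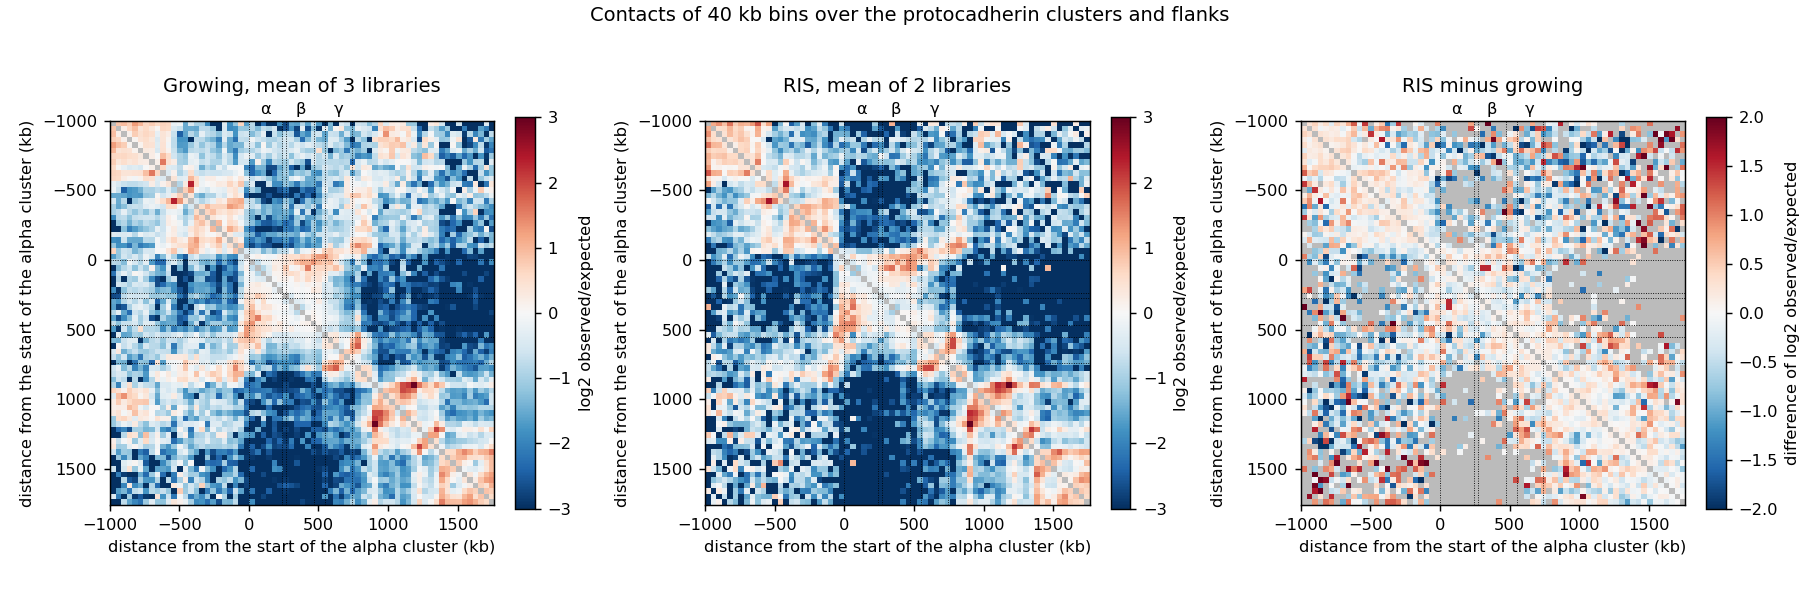
Contacts between bins of 40 kb, as log2 of observed over expected, averaged over 3 growing libraries (left), over 2 RIS libraries (middle), and the difference (right). Axes give the distance in kb from the start of the alpha cluster, and dotted lines are the edges of the clusters. Values of each group are limited to 3 on either side of 0, and colours of the right panel to 2. Grey in the right panel marks pairs at the lower limit in either group. The blue rectangle of alpha and beta with the left flank is darker in RIS cells, where the block of alpha with the left flank lay at -1.93 against -1.32.

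RIS cells had fewer contacts of the clusters with the left flank, and changes inside the clusters were small or depended on how they were computed. Of the 12 blocks that hold a cluster, 7 were called, 5 lower and 2 higher in RIS cells, with a median change of -0.16, and 3 were called from contacts before balancing. Over all windows of these shapes 23.9% were called lower and 17.1% higher, so calls of this kind are common in the genome. Of the 12, 6 had an exact permutation p of 0.1, the smallest possible, and the lowest value after Benjamini-Hochberg adjustment was 0.2.

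Contacts of the alpha cluster with the left flank fell most clearly. Their log2 levels were -1.33, -1.35 and -1.28 in the growing libraries, in the order of their replicate numbers as throughout, against -1.96 and -1.90 in the RIS libraries. Both RIS libraries lay far below all growing libraries, and the replicates of each group lay close together. The mean fell by 0.61 ± 0.04 (SE, n = 3 and 2) on the log2 scale, which is 34.4% lower (adjusted p = 6.6e-05, limma), against a range of -0.37 to 0.26 for the central 90% of 65850 windows, of which 26.2% were called lower. The block rested on 821, 932 and 999 contacts in growing and 437 and 655 in RIS libraries. By the study's mapping statistics growing replicate 3 and RIS replicate 2 held many duplicates and the others few, and the change was -0.62 within either class. Leaving out any library gave -0.64 to -0.58. Where contacts were summed over the block, so that well covered bins weighed more, the change was -0.30, and with the median of the pairs in place of the mean it was -0.98, and both were called.

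Contacts of the beta cluster with the left flank were also fewer in RIS cells. Growing libraries had -1.15, -1.06 and -1.04 and RIS libraries -1.56 and -1.40. The groups did not overlap. The change was -0.40 ± 0.07 (adjusted p = 0.0043), where 23.6% of windows were called lower, and with summed contacts it was -0.23 and no longer called (adjusted p = 0.055). The gamma cluster is farthest from that flank. It had -0.58, -0.46 and -0.43 in growing and -0.77 and -0.66 in RIS libraries, a change of -0.23 ± 0.07 (adjusted p = 0.049) where 21.5% of windows were called lower. That call was lost without any single library but growing replicate 1, with changes of -0.28 to -0.17, and from contacts before balancing, at -0.23 (adjusted p = 0.067), and by the median, at -0.26 (adjusted p = 0.10). Within the libraries of few and of many duplicates the change was -0.45 and -0.36 for beta and -0.26 and -0.23 for gamma. Whether the 3 clusters differed in how far their contacts with the left flank fell was not tested. Contacts of the left flank with the right flank were -0.71, -0.81 and -0.66 in growing and -0.84 and -1.05 in RIS libraries. The groups did not overlap there either, but the change of -0.21 ± 0.08 was not called (adjusted p = 0.069, limma). Whether the clusters lost more contacts with the left flank than the right flank did was not tested.

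Toward the right flank beta was called lower and gamma higher, but neither call held from contacts before balancing, and the difference between them was not tested. The beta cluster had -2.80, -2.71 and -2.56 in growing and -3.02 and -3.18 in RIS libraries. It was lower in both RIS libraries, by -0.40 ± 0.08 (adjusted p = 0.0085), where 23.6% of windows were called lower. It was not called without RIS replicate 2, at -0.33 (adjusted p = 0.054), or from contacts before balancing, at -0.27 (adjusted p = 0.068). The gamma cluster, the neighbour of that flank, had -1.58, -1.49 and -1.49 in growing and -1.38 and -1.38 in RIS libraries. Its contacts rose by 0.14 ± 0.04 (adjusted p = 0.033), 9.92% higher, where 21.4% of windows were called higher. The call held without growing replicate 3 and was lost without any other library, with changes of 0.11 to 0.15. It was also lost from contacts before balancing, at 0.13 (adjusted p = 0.11), and by the median of the pairs, at 0.14 (adjusted p = 0.27). The alpha cluster had -2.92, -3.24 and -2.25 in growing and -3.39 and -3.79 in RIS libraries. Growing replicate 3 stood above the other libraries, and the change of -0.79 ± 0.27 was not called (adjusted p = 0.055), but it was without growing replicate 2, at -1.01 (adjusted p = 0.028), and without growing replicate 3, at -0.51 (adjusted p = 0.043). It was also called lower from contacts before balancing, with summed contacts, without the sparsest alpha bin, and when the replicate number was fitted too. This block held only 104, 110 and 193 contacts in growing and 43 and 65 in RIS libraries. Within the libraries of few and of many duplicates the changes were -0.26 and -0.61 for beta, 0.15 and 0.11 for gamma and -0.32 and -1.54 for alpha.

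Contacts inside each cluster had changes of -0.14 to 0.08. The alpha cluster had -0.14, -0.11 and -0.03 with itself in growing and -0.28 and -0.10 in RIS libraries, a change of -0.10 ± 0.05 (adjusted p = 0.12). The groups overlapped. Without RIS replicate 2 the change was -0.19 and was called (adjusted p = 0.014). The beta cluster had -0.12, -0.24 and -0.09 in growing and -0.32 and -0.25 in RIS libraries. It was called lower, by -0.14 ± 0.05 (adjusted p = 0.04), where 25.4% of windows were called lower. It was called without growing replicate 2 but not without any other library, with changes of -0.18 to -0.10, and from contacts before balancing it was 0.02 (adjusted p = 0.86), so its direction rests on the balancing. The gamma cluster had the highest level of these blocks, with 0.50, 0.54 and 0.42 in growing and 0.53 and 0.60 in RIS libraries. In growing cells this lay above 92.0% of windows, and the change of 0.08 ± 0.05 was not called (adjusted p = 0.20).

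Between clusters, contacts of alpha with beta were called higher in RIS cells, but the call rested on the sparsest bin. Growing libraries had 0.48, 0.44 and 0.43 and RIS libraries 0.56 and 0.70, with no overlap. The change was 0.18 ± 0.05 (adjusted p = 0.026), where 16.3% of windows were called higher. Without the bin at chr5:140200001-140240000 it was 0.02 (adjusted p = 0.85), and with summed contacts 0.01 (adjusted p = 0.87), both tried after the data were seen. It was also not called without growing replicate 2, at 0.17 (adjusted p = 0.072), without growing replicate 3, at 0.17 (adjusted p = 0.053), or without RIS replicate 2, at 0.11 (adjusted p = 0.18), nor from contacts before balancing, at 0.15 (adjusted p = 0.24), or by the median, at 0.16 (adjusted p = 0.14). Contacts of alpha with gamma were -0.56, -0.73 and -0.65 in growing and -1.01 and -0.64 in RIS libraries. The RIS libraries differed from each other by more than the groups did, and the change of -0.18 ± 0.12 was not called (adjusted p = 0.27). Contacts of beta with gamma were -0.82, -1.03 and -0.74 in growing and -0.69 and -0.77 in RIS libraries, with a change of 0.13 ± 0.08 that was not called (adjusted p = 0.24). When the replicate number was fitted too, it was called higher. Over the whole span the level with itself was -0.07, -0.13 and -0.06 in growing against -0.12 and -0.02 in RIS libraries, a change of 0.02 ± 0.03 (adjusted p = 0.70).

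**Figure D2:**
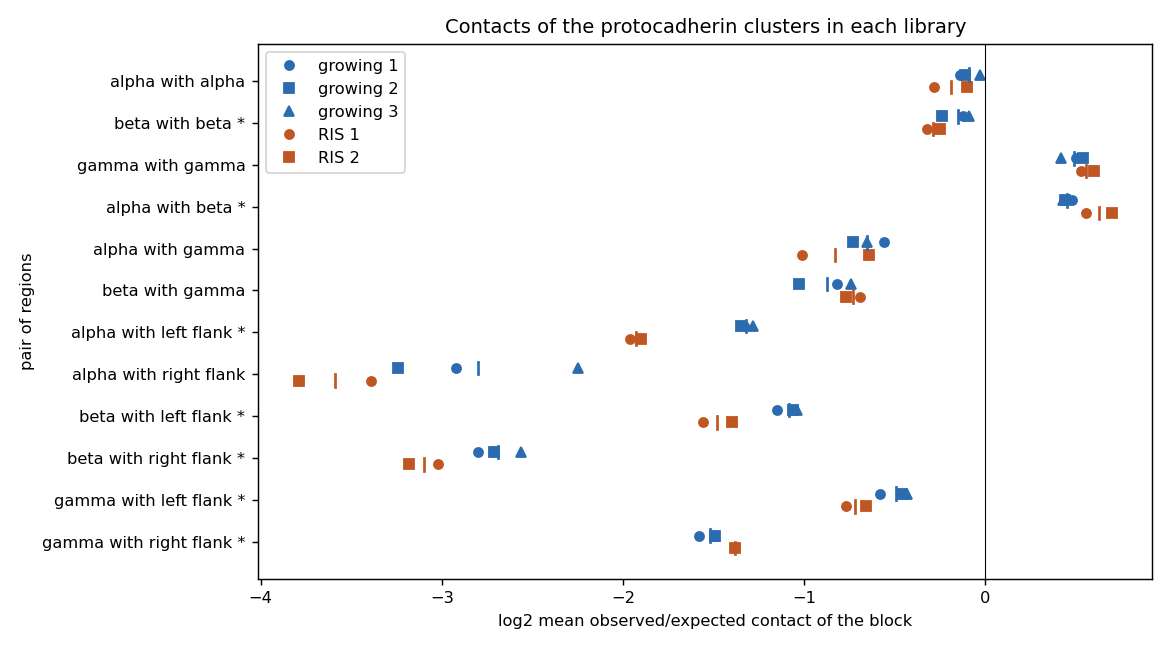
Log2 mean observed over expected contact of each of the 12 blocks that hold a protocadherin cluster (rows) in each library, growing in blue and RIS in orange, with a vertical tick at the group mean; stars mark blocks called at 5%. Both RIS libraries lie below the 3 growing libraries for alpha with the left flank, while the groups overlap for gamma with gamma, at 0.42 to 0.54 and 0.53 to 0.60.

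Each flank was divided into 5 tiles of 200 kb, numbered from 1 beside the clusters. On the left the called falls were in tiles beyond the nearest, which was not called for any cluster. That tile spans the domain border at chr5:140120001 described below, so its last bin lies on the side of the clusters and enters its mean. The lack of a call there does not show that the nearest 200 kb kept its contacts. Differences between tiles were not tested. Of 30 blocks of a cluster with a tile, 29 could be tested and 11 were called, 9 lower and 2 higher, with a median change of -0.41. Among all windows of these shapes 12.7% were called lower and 7.08% higher. In the remaining block, alpha with tile 5 on the right, the growing libraries had 2, 4 and 11 contacts and both RIS libraries had 0, which allows up to 3 each by counting error.

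The alpha cluster was called lower with 4 of 5 left tiles. With tile 1, which holds HARS1, ZMAT2 and CD14, it had -1.23, -1.16 and -1.09 in growing and -1.35 and -1.20 in RIS libraries, and the change of -0.11 was not called (adjusted p = 0.13), though by the median of the pairs it was -0.59 and was called (adjusted p = 0.046). With tile 2 it had -1.72, -1.74 and -1.75 in growing and -2.33 and -2.37 in RIS libraries, the closest agreement of replicates among the tiles of alpha. The change there was -0.62 ± 0.05 (adjusted p = 0.00096). With tile 3, which holds HBEGF, growing libraries had -1.79, -2.01 and -1.51 and RIS libraries -2.70 and -3.01, a change of -1.09 ± 0.16 (adjusted p = 0.0077). Tile 4, with PURA and the start of NRG2, and tile 5, with the end of NRG2, had changes of -0.53 (adjusted p = 0.025) and -1.02 (adjusted p = 0.014). The call for tile 4 was kept only without growing replicate 2, with changes of -0.61 to -0.45 over the libraries left out.

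The beta cluster was called lower with left tiles 2 and 3. With tile 3 it had the largest change of the 29 blocks, from -2.01, -2.05 and -1.30 in growing to -3.66 and -3.27 in RIS libraries, which is -1.68 ± 0.26 (adjusted p = 0.017) on 34, 40 and 65 against 8 and 15 contacts. With tile 2 it had -1.23, -1.45 and -1.51 in growing and -2.17 and -2.0 in RIS libraries, a change of -0.68 ± 0.11 (adjusted p = 0.014). Without RIS replicate 1 these changes were -1.49 (adjusted p = 0.069) and -0.60 (adjusted p = 0.066), and by the median tile 2 was at -0.71 (adjusted p = 0.056). With tile 1 beta had -0.58, -0.54 and -0.37 in growing and -0.53 and -0.27 in RIS libraries, which overlapped. On the right it was called lower with tile 2, by -0.90 ± 0.16 (adjusted p = 0.018), a call lost without growing replicate 2, at -0.80, without growing replicate 3, at -0.87, or without RIS replicate 2, at -0.73.

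The gamma cluster was called lower with left tiles 2 and 3, by -0.41 ± 0.10 (adjusted p = 0.045) and -0.67 ± 0.15 (adjusted p = 0.042), while its contacts with left tile 1 were 0.04, 0.07 and 0.02 in growing and 0.03 and 0.12 in RIS libraries. Left tile 2 lost its call without each of the 5 libraries in turn and left tile 3 without all but growing replicate 1, with changes of -0.45 to -0.37 and -0.78 to -0.58. By the median they were at -0.22 (adjusted p = 0.29) and -0.59 (adjusted p = 0.13). On the right gamma was called higher with tile 1, the side of DIAPH1 and HDAC3, from -0.33, -0.33 and -0.39 in growing to -0.21 and -0.17 in RIS libraries, by 0.16 ± 0.04 (adjusted p = 0.017). Without RIS replicate 2 it was 0.14 (adjusted p = 0.097), and with the median of the pairs in place of the mean it was -0.22, so that the direction depends on that choice. It was also higher with right tile 3, which holds the starts of PCDH12 and NDFIP1, from -1.73, -1.73 and -1.63 in growing to -1.27 and -1.41 in RIS libraries, by 0.36 ± 0.08 (adjusted p = 0.026), a call that held without growing replicate 3 or RIS replicate 2. It was lost without growing replicate 1 or 2, at 0.34 in both cases, and without RIS replicate 1, at 0.29, as well as from contacts before balancing, at 0.29 (adjusted p = 0.063), and by the median, at 0.28 (adjusted p = 0.17).

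**Figure D3:**
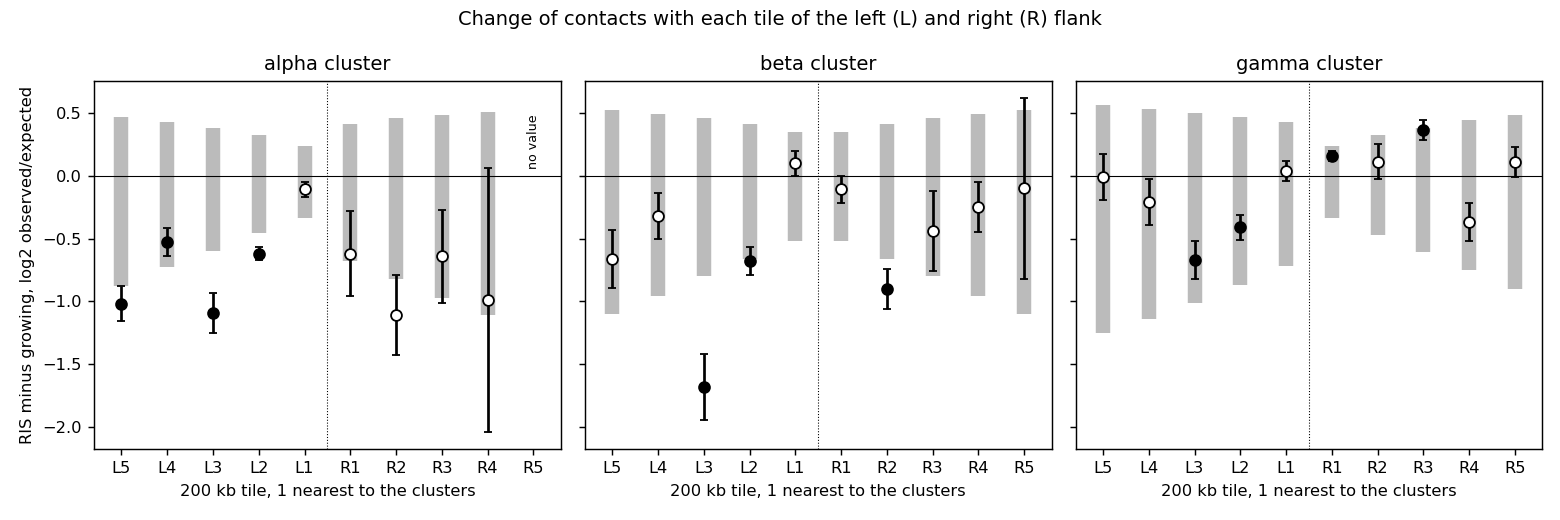
Change of contacts of each cluster (panels) with each 200 kb tile of the left (L) and right (R) flank, as RIS minus growing on the log2 scale of observed over expected, with bars of 1 SE; filled points were called at 5% and grey bars hold the central 90% of all windows of that shape. Left tiles 2 and 3 lie below 0 for all 3 clusters, from -0.41 to -1.68, while the nearest left tile lies between -0.11 and 0.10.

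The edge of the alpha cluster toward the left flank was a strong domain border, and it became deeper in RIS cells. The insulation score is the log2 mean contact across a position, between 520 kb on either side, over the chromosome's mean, so that a low score marks a border. At chr5:140120001, just before the alpha cluster, the growing libraries scored -1.54, -1.48 and -1.35 and the RIS libraries -1.87 and -1.81. Both RIS libraries were lower, by -0.38 ± 0.05 (adjusted p = 0.0005), and in growing cells only 0.738% of positions of the genome had a lower score. The neighbouring positions at chr5:140080001 and chr5:140040001 changed by -0.39 and -0.32, but windows of neighbouring positions share most of their contacts. The score at chr5:140120001 is made largely of contacts of alpha and beta with the left flank. The deeper border is therefore not separate from the falls of those blocks and adds no support to them. In the mean matrices the prominence of this border, its depth below the higher ground beside it, was 2.181 in growing and 2.692 in RIS cells.

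The other borders kept their places. Growing and RIS mean matrices had the same 8 borders in the region, and RIS had 1 more, a shallow one at chr5:141680001 near SPRY4, with a prominence of 0.119. Over the genome they had 5256 and 5671 borders. At chr5:140680001, between beta and gamma, the prominence was 0.38 in growing and 0.557 in RIS cells, and the score was -0.89, -1.04 and -0.82 in growing against -0.98 and -0.93 in RIS libraries, which overlapped (change -0.04, adjusted p = 0.54). At chr5:141040001, beyond the gamma cluster and near HDAC3, the growing libraries scored -1.44, -1.33 and -1.27 and the RIS libraries -1.23 and -1.27, a change of 0.09 that was not called (adjusted p = 0.12). Without growing replicate 3 it was 0.13 and was called (adjusted p = 0.021).

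Of 70 positions in the region 34 were called, 10 lower and 24 higher in RIS cells, and over the genome 27.5% of positions were called lower and 25.5% higher. None of the alpha and beta positions was called, nor those between clusters, where changes ran from -0.09 to 0.06. In the gamma cluster 3 of 5 positions were called higher. At chr5:140880001, at the end of the cluster, the score was -0.68, -0.67 and -0.67 in growing against -0.54 and -0.52 in RIS libraries, a change of 0.14 ± 0.03 (adjusted p = 0.0028). The left flank had 5 lower and 12 higher positions, and the right flank 5 lower and 9 higher.

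**Figure D4:**
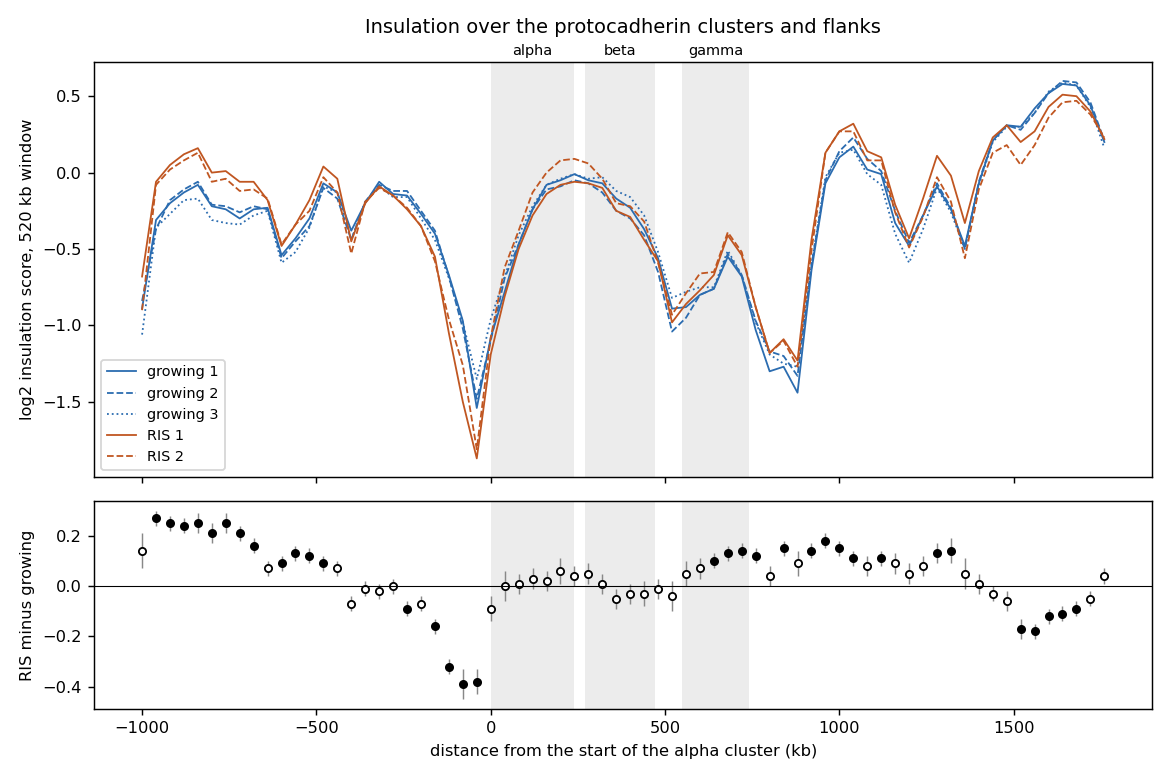
Log2 insulation score with a window of 520 kb in each library (top) and its change, RIS minus growing, with bars of 1 SE and filled points called at 5% (bottom), against the distance from the start of the alpha cluster in kb; grey bands are the clusters. The deepest dip is 40 kb before the alpha cluster, at -1.46 in growing and -1.84 in RIS cells.

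The alpha and beta clusters lay in the B compartment, the less active class of chromatin, between flanks of the A compartment. The first component of the contacts in bins of 120 kb, signed so that A is positive and rich in genes and scaled within each library and chromosome to a mean square of 1, is given as a description. Of 24 such bins in the region 18 were positive and 5 negative in all 5 libraries. The 4 bins over alpha and beta had growing means of -0.992 to -1.441 and RIS means of -0.906 to -1.324, and in all 4 both RIS libraries were nearer to 0, that is to A, than any growing library. At chr5:140640001-140760000, between beta and gamma, values were -0.563, -0.485 and -0.784 in growing and -0.077 and -0.183 in RIS libraries. In the gamma cluster at chr5:140760001-140880000 they were 0.243, 0.454 and 0.195 in growing and 0.559 and 0.629 in RIS libraries. The single bin of mixed sign, at chr5:140040001-140160000 before the alpha cluster, had -0.252, -0.054 and -0.116 in growing and 0.157 and 0.057 in RIS libraries. Both RIS libraries were higher than any growing library in these 3 bins too, in 9 of the 24 in all, and lower than any in 7. Over the genome 29.1% of 23299 bins were higher and 41.1% lower in this way. The 9 included the left-flank bins at chr5:139200001, with 0.537, 0.298 and 0.259 in growing and 0.743 and 0.812 in RIS libraries, and at chr5:139320001. The 7 lay in the right flank, as at chr5:141480001, with 1.619, 1.434 and 1.523 in growing and 1.222 and 1.218 in RIS libraries.

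Compartment preference is another measure, in bins of 40 kb, and in 1 alpha bin and 1 beta bin it fell in RIS cells. It is the log2 ratio of mean observed over expected contact with A bins to that with B bins of chromosome 5 beyond 2 Mb. Of 69 bins 15 were called, 2 lower and 13 higher in RIS cells, where 19.1% of bins of the genome were called lower and 8.05% higher. The lower bins were in the clusters. At chr5:140200001, the sparsest alpha bin, preference was -1.91, -1.90 and -1.57 in growing against -2.48 and -2.49 in RIS libraries, a change of -0.69 ± 0.19 (adjusted p = 0.036). At chr5:140440001, in the beta cluster, the growing libraries had -2.36, -2.0 and -2.27 and the RIS libraries -2.83 and -3.19, a change of -0.80 ± 0.21 (adjusted p = 0.031). By preference both bins moved toward B, while the first component of the bins of 120 kb that hold them, at chr5:140160001 and chr5:140400001, changed by 0.086 and 0.086, toward A. The median change of preference was -0.50 over the alpha bins and -0.18 over the beta bins, with a range of -0.70 to -0.33 in alpha and -0.80 to 0.10 in beta, where the bins at chr5:140560001 and chr5:140600001 had 0.10 and 0.04. With 1 of 6 alpha bins and 1 of 5 beta bins called, these shares were near the 19.1% of the genome, and no direction of the compartment of alpha and beta can be read from both measures together. The mean over the 6 alpha bins was -2.20, -2.18 and -2.30 in growing against -2.72 and -2.76 in RIS libraries, and that over the 5 beta bins -2.39, -2.17 and -2.18 against -2.48 and -2.57.

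The higher bins were 10 of the left flank, 2 of the right flank and 1 between beta and gamma. The last, at chr5:140680001, where PCDHGA1 and PCDHGA2 start, had -0.75, -0.63 and -0.90 in growing and -0.10 and -0.21 in RIS libraries, a change of 0.60 ± 0.18 (adjusted p = 0.046). None of the gamma bins was called, and their mean was 0.34, 0.61 and 0.04 in growing against 0.60 and 0.53 in RIS libraries. In the left flank the bin at chr5:139560001 had the largest rise, from 0.97, 1.16 and 0.82 to 2.93 and 2.31, which is 1.63 ± 0.24 (adjusted p = 0.0072), while the first component of the bin of 120 kb that starts there changed by -0.058. The bin of CD14 at chr5:140000001 rose by 1.02 (adjusted p = 0.033), and that of HBEGF at chr5:139720001 by 0.84 (adjusted p = 0.025). The count of 15 fell to 6, 8, 4 and 9 without growing replicate 2 or 3 or RIS replicate 1 or 2.

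The alpha and beta clusters also stood out in growing cells for how few of their contacts were local. Up to 2 Mb within the chromosome the alpha bins had on average 49.9, 49.2 and 52.8% of their contacts in growing and 45.1 and 48.7% in RIS libraries, and the beta bins 51.7, 49.6 and 51.3% against 46.7 and 50.2%. The median bin of the genome had 70.0% in growing cells. Each alpha and beta bin had a growing mean above that of only 0.721 to 2.75% of bins. Bins beside these clusters shared the trait. The last left-flank bin, at chr5:140120001, had a growing mean of 52.0%, and the bin at chr5:140640001, between beta and gamma, 53.1%. The gamma bins had 64.1, 64.3 and 63.7% in growing and 61.8 and 67.8% in RIS libraries, nearer to the rest. Beyond 2 Mb on the chromosome the alpha bins had 40.9, 41.3 and 38.7% in growing and 40.8 and 36.5% in RIS libraries, where the median bin had 20.8%.

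Shares were tested as log2 odds. Every bin of the region had the same SE, 0.11 up to 2 Mb and 0.14 beyond. The p-values of these 2 shares thus rest on a spread pooled over the genome, not on that of the single bin. Up to 2 Mb 25 of 69 bins were called, 4 lower and 21 higher, against 33.8% lower and 13.3% higher in the genome. Of the 4 lower bins 2 lay in alpha, 1 in beta and 1 in the bin between them, and all 21 higher bins in the flanks. At chr5:140360001, the end of the alpha cluster, the share was 50.6, 50.4 and 51.3% in growing against 41.0 and 47.0% in RIS libraries, a change of -0.39 ± 0.11 in log2 odds (adjusted p = 0.0011). In the other called alpha bin, at chr5:140240001, the groups overlapped. It had 50.2, 48.9 and 52.0% in growing and 42.9 and 49.2% in RIS libraries. Beyond 2 Mb 39 bins were called, all lower, where 24.5% of bins of the genome were. Of these 22 lay in the left flank, 14 in the right flank, 2 in gamma and 1 between beta and gamma. At chr5:140720001, the start of the gamma cluster, the share was 28.3, 27.8 and 29.7% in growing against 25.5 and 20.3% in RIS libraries (adjusted p = 0.0075). The RIS libraries differed widely, and 19 bins were called without RIS replicate 2 and 58 without RIS replicate 1. Up to 2 Mb the count was 38 without RIS replicate 1, 15 without growing replicate 2 and 13 without growing replicate 3.

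Contacts with other chromosomes were more frequent in RIS cells in every bin of the span of the clusters. They were called higher in 58 of 69 bins and in 19 of 19 bins of the span, while 66.1% of bins of the genome were called higher. The share of the median bin of the genome was 8.58% in growing and 10.9% in RIS cells, so more contacts between chromosomes were a property of the RIS libraries as a whole. The mean share of the alpha bins was 9.23, 9.49 and 8.41% in growing against 14.1 and 14.8% in RIS libraries, that of the beta bins 8.28, 8.86 and 8.42% against 13.3 and 14.2%, and that of the gamma bins 7.87, 7.81 and 7.38% against 11.2 and 11.0%. The median change in log2 odds was 0.78 in alpha, 0.85 in beta and 0.57 in gamma, beside 0.36 over all bins, with a central 90% of -0.09 to 1.07. The largest change in the region was that of the bin of PCDHB1, between alpha and beta, from 7.39, 9.38 and 8.27% to 15.7 and 15.3%, which is 1.02 ± 0.11 (adjusted p = 4.3e-07).

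**Figure D5:**
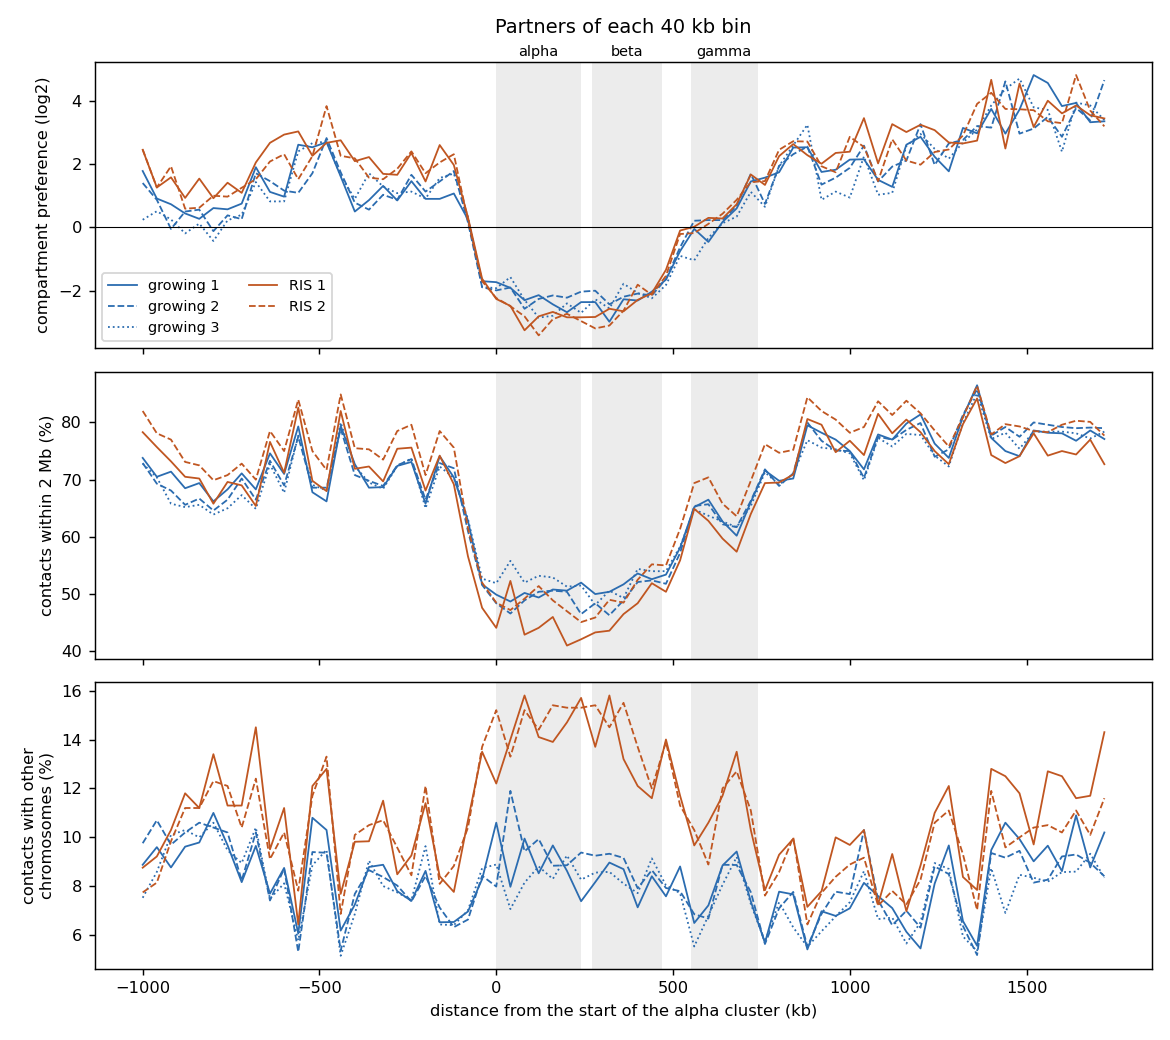
Compartment preference as the log2 ratio of observed over expected contact with A to that with B (top), percent of contacts within 2 Mb (middle) and percent with other chromosomes (bottom) of each bin of 40 kb in each library. The horizontal axis is the distance from the start of the alpha cluster in kb, and grey bands are the clusters. Alpha and beta dip in the upper panels, to bin means between 48.8 and 53.4% within 2 Mb in growing cells, and RIS libraries lie above growing libraries over the clusters in the bottom panel.

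Single pairs of bins gave no call in the clusters. Of 1018 pairs tested in the region limma called 1, between left-flank bins at chr5:139160001 and chr5:139640001 with 2, 4 and 4 contacts in growing and 0 and 0 in RIS libraries, where 0.0602% of all pairs were called. Of the 377 pairs with a bin in a cluster 0 were called, and 40 had an unadjusted p under 0.05, which is 10.6% beside 10.2% of all pairs. The voom method, which weights pairs by their contacts, called 1.26% of all pairs and 28 in the region, 27 of them higher, but also 0 of these 377, of which 32 had an unadjusted p under 0.05. The median of these 377 pairs was 10 contacts in a library. In a simulation of 20000 pairs drawn from all tested pairs, 200 were changed by a factor of 2. Of these limma found 0%, and voom 32% with counting noise alone and 13.5% with an added dispersion of 0.02. The drawn pairs were not those of the clusters and the adjustment ran over fewer pairs, so detection in the 377 pairs was not measured. Their lack of calls does not show a lack of change. Pairs of the left flank with alpha had a median change of -0.57 over 66 pairs, of which 13 were lower and 1 higher at an unadjusted p under 0.05. These were the 66 of 150 pairs with a mean scaled value of at least 5 over the libraries. A pair could pass by its growing values alone, and the block tested above holds the same contacts, so this count adds no support.

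Some of the 5 pairs with the lowest unadjusted p in each direction are given here. The lowest p among falling pairs was that of the left-flank bin at chr5:139600001 with the alpha bin at chr5:140280001. That pair had 2, 1 and 2 contacts in growing and 0 and 0 in RIS libraries (log2 change -3.24, adjusted p = 0.24, limma). The pairs of the sparsest alpha bin at chr5:140200001 with the beta bins at chr5:140440001 and chr5:140480001 were among those that rose. Contacts with the first were 3, 6 and 3 in growing and 10 and 10 in RIS libraries (log2 change 1.56, adjusted p = 0.44). Contacts with the second were 4, 3 and 6 in growing and 11 and 8 in RIS libraries (log2 change 1.45, adjusted p = 0.44). The same alpha bin met the bin of PCDHGA1 and PCDHGA2 at chr5:140680001 with 5, 8 and 11 contacts in growing and 1 and 1 in RIS libraries (log2 change -2.37, adjusted p = 0.25). The beta bin at chr5:140440001 met that bin with 32, 32 and 37 contacts in growing and 9 and 15 in RIS libraries, the best counted of these pairs (log2 change -1.04 ± 0.19, adjusted p = 0.41). None passed the test over all pairs.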

How the data were processed

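Hi-C libraries of IMR90 cells, 3 growing and 2 RIS, were analysed. The authors processed the reads with HiC-Pro and FastQC and the genome hg19 per the labels, and deposited an ICE-balanced contact signal for bins of 40 kb in every library, with equal sums over bins. Undoing the balancing with 1 factor for each bin gave whole contacts at 100% of values (tolerance 0.05), which served as the depth. Capture Hi-C, in 4 libraries, held no value in the region and was not used.

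Balanced values were divided by the mean of their distance. Blocks, insulation, preference and shares were tested with limma 3.58.1 in R 4.3.3 over all windows or bins of 23 chromosomes, with Benjamini-Hochberg adjustment at 5%, beside two-sided exact permutation tests over libraries. A window needed values in 80% of its pairs. Bin pairs up to 2 Mb apart with a mean scaled value of at least 5 were tested as log2 of the value plus 0.5 (pseudocount), normalized by loess. In simulated data 90% of alpha with alpha windows, 56% of beta with gamma windows and 77% of windows of the span with the left flank were found when changed by 0.5 on the log2 scale, and 0% when changed by 0.2. Of bins changed by 0.3 in insulation 54.5% were found, and 0% of bins changed by 0.3 in preference or in the share with other chromosomes. Each simulation changed only 200 windows or bins and left the rest unchanged, which makes the adjustment stricter than in the data. Smaller changes were called in the data, such as 0.14 for gamma with the right flank, so these shares do not give the power there.

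Gene positions came from GENCODE lifted to GRCh37. Flank genes were named from a fixed list, and bin pairs from the 5 lowest p in each direction with a bin in a cluster. The region, lists and tests were chosen with earlier results of these data known. Python 3.11.15 with numpy 2.4.6, scipy 1.17.1 and pandas 2.3.3 was used.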

Additional observations from a re-analysis of the deposited data

How the results depend on the processing

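Growing and RIS libraries share replicate numbers, and the labels name no common source behind a number. Deviations of same-numbered libraries correlated at 0.096 and -0.222 for insulation and 0.051 and -0.021 for preference, but those of the 2 RIS libraries mirror each other by construction, so these values neither show nor exclude a pairing. With the replicate number as a block, beta with beta was -0.10 (adjusted p = 0.13) and gamma with left flank -0.20 (0.099), both no longer called, while beta with gamma at 0.20 (0.044) and alpha with right flank at -0.51 (0.0036) were called. With this block 4 bins were called for preference, 8 for the share up to 2 Mb, 22 for the share beyond 2 Mb and 1 pair by voom. A block for duplicates called alpha with alpha, at -0.12 (0.02), and 1 pair by voom.

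Of the 12 blocks, 7 were called, against 3 from contacts before balancing, 2 of 10 by the median of pairs, which gave no value for alpha and beta with the right flank, and 0 by exact permutation, which cannot call any. The causes were not tested. From contacts before balancing, beta with beta was 0.02 (0.86), alpha with beta 0.15 (0.24), beta with right flank -0.27 (0.068), gamma with left flank -0.23 (0.067) and gamma with right flank 0.13 (0.11), not called, and alpha with right flank -0.93 (0.015), called. By the median, beta with beta was -0.14 (0.27), alpha with beta 0.16 (0.14), gamma with left flank -0.26 (0.10), gamma with right flank 0.14 (0.27) and gamma with right tile 1 -0.22 (0.053). With adjacent bins left out, beta with beta was -0.21 (0.067). With any overlap of a bin with a cluster it was -0.08 (0.19), and gamma with gamma was called at 0.11 (0.04). With the expected value pooled over chromosomes, gamma with left flank was -0.23 (0.051). By exact permutation the changes of the 7 called blocks, -0.14, 0.18, -0.61, -0.40, -0.40, -0.23 and 0.14, had p = 0.2 for beta with beta and 0.1 for the others.

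Of the alternatives chosen after seeing the data, summed contacts gave beta with beta -0.08 (0.097), alpha with beta 0.01 (0.87) and beta with left flank -0.23 (0.055), not called, and gamma with gamma 0.09 (0.038) and alpha with right flank -0.84 (0.022), called. Without the sparsest alpha bin, alpha with beta was 0.02 (0.85) and alpha with right flank -1.15 (0.0075), called.

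Leaving out 1 library at a time gave 3 to 5 called blocks, 28 to 34 insulation positions, 4 to 12 bins for preference, 13 to 38 for the share up to 2 Mb, 19 to 58 for the share beyond 2 Mb, 41 to 59 for other chromosomes and 0 to 1 pair, the 1 by voom without growing replicate 3. Block changes ran from -0.19 to -0.01 for alpha with alpha, -0.18 to -0.10 for beta with beta, 0.04 to 0.11 for gamma with gamma, 0.11 to 0.25 for alpha with beta, -0.36 to 0.01 for alpha with gamma, 0.05 to 0.20 for beta with gamma, -0.64 to -0.58 for alpha with left flank, -1.01 to -0.51 for alpha with right flank, -0.47 to -0.32 for beta with left flank, -0.48 to -0.33 for beta with right flank, -0.28 to -0.17 for gamma with left flank and 0.11 to 0.15 for gamma with right flank. Numbers in brackets are adjusted p-values of limma, and a lone RIS library is taken to vary like the growing ones. Alpha with left flank was called under every alternative tried but exact permutation. Depth limits the pairs of alpha and beta with the right flank most, where blocks held 43 to 235 contacts in a library.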
